A study of Drosophila melanogaster with 4 samples.

Results

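Papilin (Ppn) and the genes of the basement membrane were followed on 4 whole-genome arrays of Drosophila pupae with and without knockdown of the dopamine receptor Dop1R2. The set was given as 10 genes by name, and a probe set belonged to it where the probe annotation gave 1 of those names. This found 11 of 13966 probe sets, for 9 of the 10844 genes that have a probe set of their own. Mmp1, the secreted matrix metalloproteinase of the fly, has no probe set of its own name in the annotation and is named only. The genes were chosen from the signal differences between the groups on these same 4 arrays, so those differences, and the counts of these genes past a threshold, are given as a description and support nothing.

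The knockdown (Dop1R2 RNAi) animals were UAS-dsDop1R2/+;Act5C-Gal4/+, and the controls were w1118;Act5C-Gal4/+, with 2 arrays for each group. By these labels both groups carried the Act5C-Gal4 driver, which works in all tissues, and only the knockdown pupae carried the hairpin. The crosses were kept at 29 °C, and each array was hybridized with RNA from 10 to 20 pooled whole pupae at the pale, or early, stage. Several figure legends of the study, the one for the arrays among them, instead give controls that have the hairpin and the balancer TM6B and lack the driver, while its methods give the driver crossed to w1118. The genotype of the control arrays is thus not settled, and which of the hairpin insertion lines was used on the arrays is not given in the sources used here. In RNA from whole animals, fewer cells of a type and less RNA per cell cannot be told apart.

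The basement membrane is a thin sheet of extracellular matrix that underlies epithelia and wraps muscle, fat body, gut and nerve. Its core is a network of type IV collagen and a network of laminin, which perlecan and nidogen tie together. In flies, haemocytes and fat body make much of the collagen, and metalloproteinases cut the sheet when larval tissues are dismantled and imaginal discs evert at metamorphosis. Papilin is a large secreted glycoprotein of this matrix with thrombospondin and Kunitz-type repeats, related to the ADAMTS proteases in its non-catalytic part.

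Microarray Suite (MAS5) gave each probe set a signal, an intensity on a linear scale, and the arrays had median signals of 43.4 to 45.0 after scaling to the same trimmed mean. Differences are given on the log2 scale, as Dop1R2 RNAi minus control, with the standard error of limma, a linear model fitted across all probe sets. A probe set was fitted if it reached the 40th percentile of the array on at least 2 of 4 arrays, which left 8749, and p was adjusted over these after Benjamini and Hochberg, with 0.05 as the threshold. The test that the study's methods name was also run on these 8749, without the study's own choice of genes. In the annotation 0 probe sets are named for Dop1R2 alone, and the level of the targeted transcript was not analysed here.

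Ppn showed the largest difference of the set. Its brighter probe set had signals of 203 and 176 in the knockdown and 549 and 458 in controls. Both knockdown arrays were thus far below both controls. The 2 arrays of a group differed by 0.21 (knockdown) and 0.26 (control) on the log2 scale. The medians over all probe sets fitted were 0.29 and 0.3. The means were 189.6 ± 19.6 (SD, n = 2 arrays) and 503 ± 63.8 (SD, n = 2), a 2.65-fold lower signal in the knockdown. On the log2 scale the difference was -1.41 (standard error 0.23, 95% interval -1.95 to -0.87). Of the 8749 probe sets fitted, 93 (1.06%) had a lower difference.

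The dimmer probe set of Ppn pointed the same way. It had signals of 22.4 and 14.7 in the knockdown and 32.6 and 34.7 in controls, so the groups again did not overlap. The log2 difference was -0.89 (standard error 0.48), with an interval from -2.02 to 0.24. This probe set was kept for the fit through its 2 control arrays alone, since both knockdown arrays were under the limit, and a probe set kept in that way had to be lower in the knockdown. With 32 added to each signal, which damps dim signals, its difference was -0.38, against -1.27 for the brighter set. The identifier of the brighter set ends in the suffix the array maker uses for probes that can match more than 1 transcript.

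**Figure D1:**
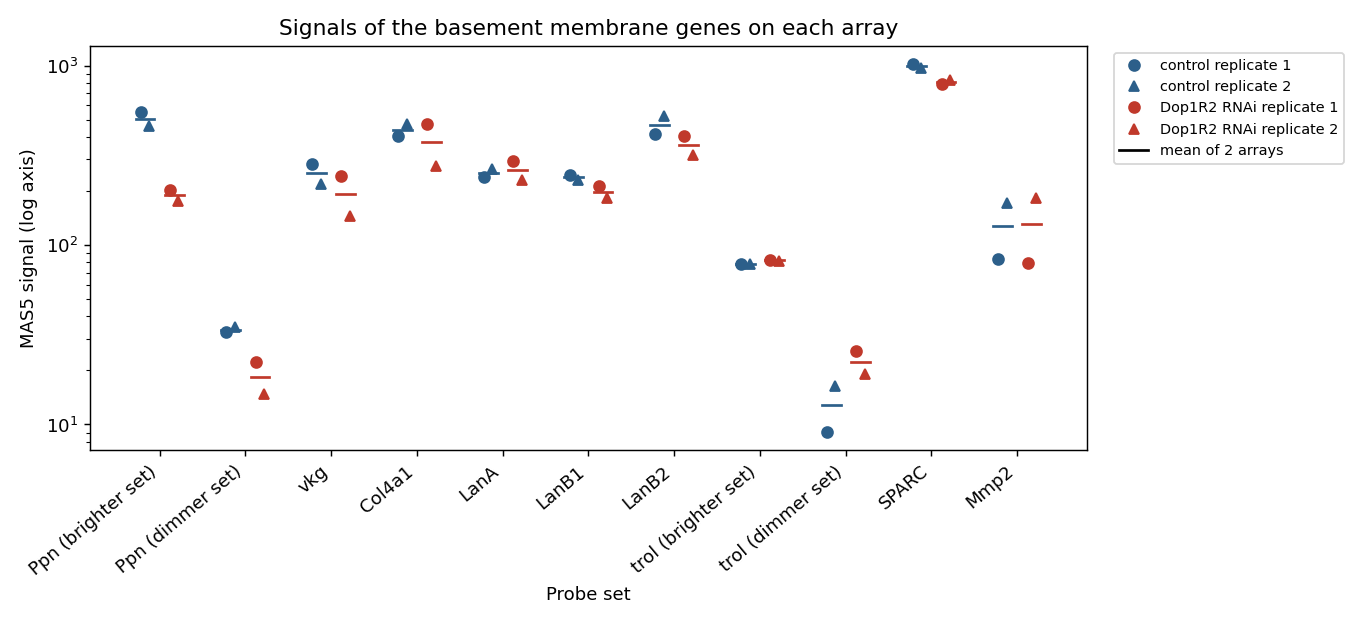
MAS5 signal (log axis) of the 11 probe sets on each of the 4 arrays, with controls in blue, Dop1R2 RNAi in red, circles for replicate 1, triangles for replicate 2 and lines for the mean of 2 arrays. The brighter Ppn set lies at 203 and 176 in the knockdown and at 549 and 458 in controls, while Mmp2 is at 79.5 and 83.2 in both arrays numbered 1 and at 182 and 172 in both numbered 2.

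The type IV collagen chains are encoded by vkg and Col4a1, which are direct neighbours in the RefSeq annotation with 0 genes between them. The signal of vkg was 241 and 146 in the knockdown and 283 and 219 in controls. The groups overlapped, because knockdown replicate 1 lay above control replicate 2. For Col4a1 the signals were 473 and 274 in the knockdown and 404 and 471 in controls. Here knockdown replicate 1 was the highest of the 4 arrays and knockdown replicate 2 the lowest.

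Both collagen differences were smaller than that of Ppn and rested on knockdown replicate 2. The log2 difference was -0.41 for vkg (standard error 0.31, interval -1.13 to 0.31) and -0.28 for Col4a1 (standard error 0.30, interval -0.99 to 0.43). Without knockdown replicate 2 they were -0.05 and 0.12, and without knockdown replicate 1 they were -0.77 and -0.67. The 2 knockdown arrays differed from each other by 0.72 for vkg and by 0.79 for Col4a1 on the log2 scale, against a median of 0.29 over all probe sets fitted.

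Muscle genes were followed through a list of 8, of which 5 had a probe set and were fitted. Their summed signal was 10387 and 6686 in the knockdown and 10426 and 8579 in controls, so knockdown replicate 2 was lowest. Much of the sum was Mlc2, at 6430 and 4491 in the knockdown and 6606 and 5665 in controls. By the brightest probe set of each gene, knockdown replicate 2 was not the lowest array for Mlp60A alone (417, with control replicate 2 at 373). The dimmer probe set of the gene up had 119 and 91.5 in the knockdown and 86.8 and 129 in controls. In that set control replicate 1 was the lowest array. In limma 0 of these 5 genes passed at adjusted p, beside 1.49% of all, and 0 at unadjusted p, beside 7.53% higher and 5.51% lower. With the methods' t-test after adjustment 0 passed. Of the 5, Mlc1, a myosin light chain, had a log2 difference of -0.33 (adjusted p in limma 0.702). Mlp60A, a muscle LIM protein, had one of 0.33 (0.641). The part of the muscle signal in the collagen values was not tested.

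Laminin is a trimer of an alpha, a beta and a gamma chain, encoded here by LanA, LanB1 and LanB2. The alpha chain gene LanA had signals of 295 and 229 in the knockdown and 239.6 and 265 in controls. Both controls lay between the knockdown arrays, and the log2 difference was 0.05 (standard error 0.24, interval -0.52 to 0.61). LanB1 had signals of 212 and 182 in the knockdown and 246 and 231 in controls. LanB2 had 403 and 316 in the knockdown and 414 and 524 in controls.

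For both the beta and the gamma chain the knockdown arrays lay below both controls, but by little. The log2 difference was -0.28 for LanB1 (standard error 0.22, interval -0.81 to 0.25) and -0.39 for LanB2 (standard error 0.24, interval -0.96 to 0.19). The intervals of all 3 chains include 0 and overlap each other. The difference between the chains was not tested.

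SPARC, a collagen-binding glycoprotein that fly cells need to lay down collagen IV, was the most even of the genes that were lower. Its signals were 785 and 832 in the knockdown and 1016 and 969 in controls. The groups did not overlap, and the arrays of a group differed by 0.08 and 0.07 on the log2 scale. The log2 difference was -0.30 (standard error 0.19, interval -0.75 to 0.15), and it stayed between -0.34 and -0.25 when any 1 array was left out.

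The perlecan gene trol, which encodes the large heparan sulphate proteoglycan of the sheet, was nearly level. Its brighter probe set had signals of 82.8 and 81.5 in the knockdown and 78.7 and 78.7 in controls. The knockdown arrays were above both controls, yet the log2 difference was 0.06 (standard error 0.22, interval -0.47 to 0.59). The dimmer trol set, with 25.6 and 19.2 in the knockdown and 9.13 and 16.4 in controls, was under the limit on every array and was left out of the fit.

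Mmp2, the membrane-anchored metalloproteinase, differed more between the arrays of a group than between the group means. Its signals were 79.5 and 182 in the knockdown and 83.2 and 172 in controls. In both groups replicate 2 was thus about 1 unit above replicate 1 on the log2 scale (1.20 and 1.05). The log2 difference between the groups was 0.01 (standard error 0.48, interval -1.13 to 1.15). With 1 array left out it lay anywhere from -0.59 to 0.61. The interval leaves room for a change of about 1 unit in either direction.

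Of the 10 fitted probe sets of the genes, 7 had a log2 difference below 0, with a median of -0.29, and over all 8749 the median was -0.04. The groups did not overlap in 6 of 10, and in 45.1% of all fitted probe sets. In 5 of 10 both knockdown arrays lay below both controls, which was so for 24.0% of all fitted probe sets, and in 1 of 10 (trol) both lay above, as for 21.1% of all. The 7, the 6 and the 5 include the dimmer Ppn set, kept through its 2 control arrays alone, which had to be lower. With 1 probe set per gene, 6 of 9 were below 0, and in 4 of 9 both knockdown arrays lay below both controls. At adjusted p, 1 of 10 passed as lower (the brighter Ppn set), beside 0.103% of all, and 0 passed as higher, beside 1.38% of all. At unadjusted p from limma the counts of the 10 were 1 lower and 0 higher, beside 5.51% and 7.53% of all. With the methods' t-test after adjustment 0 passed in either direction, as over all fitted probe sets. The 1 that passed as lower also became 0 without control replicate 1, without control replicate 2, when dim probe sets were fitted too and with no trend in the variance. Because the genes were picked with these values known, nothing is read from the counts.

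**Figure D2:**
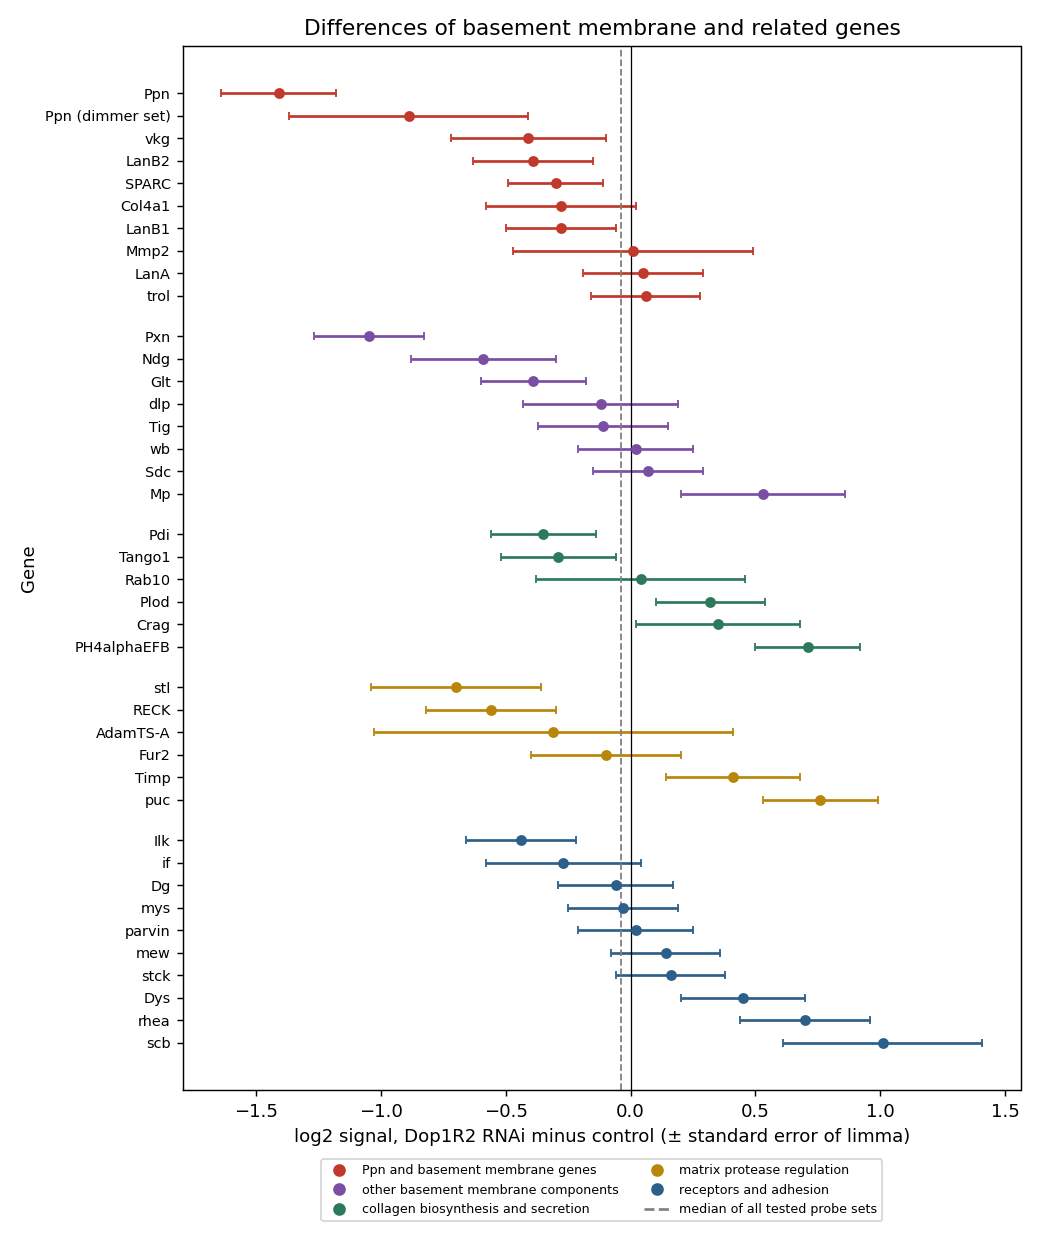
Log2 signal of Dop1R2 RNAi minus control with the standard error of limma as bars, for the 10 fitted probe sets of the genes and 30 related genes in 4 lists. Ppn lies at -1.41 and -0.89, Pxn at -1.05 and scb at 1.01, and the dashed line is the median of all fitted probe sets, -0.04.

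In 12 alternatives in limma the log2 difference of the brighter Ppn set lay between -1.54 and -1.27. It was -1.28 without control replicate 1 and -1.54 without control replicate 2. Other filters, a floor at the 20th percentile, no trend and the replicate block left it at -1.41. None of these could move it, because they leave the group means of this set as they are. Quantile normalization and median centring, which could, also gave -1.41, and 32 added to each signal gave -1.27.

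**Figure D3:**
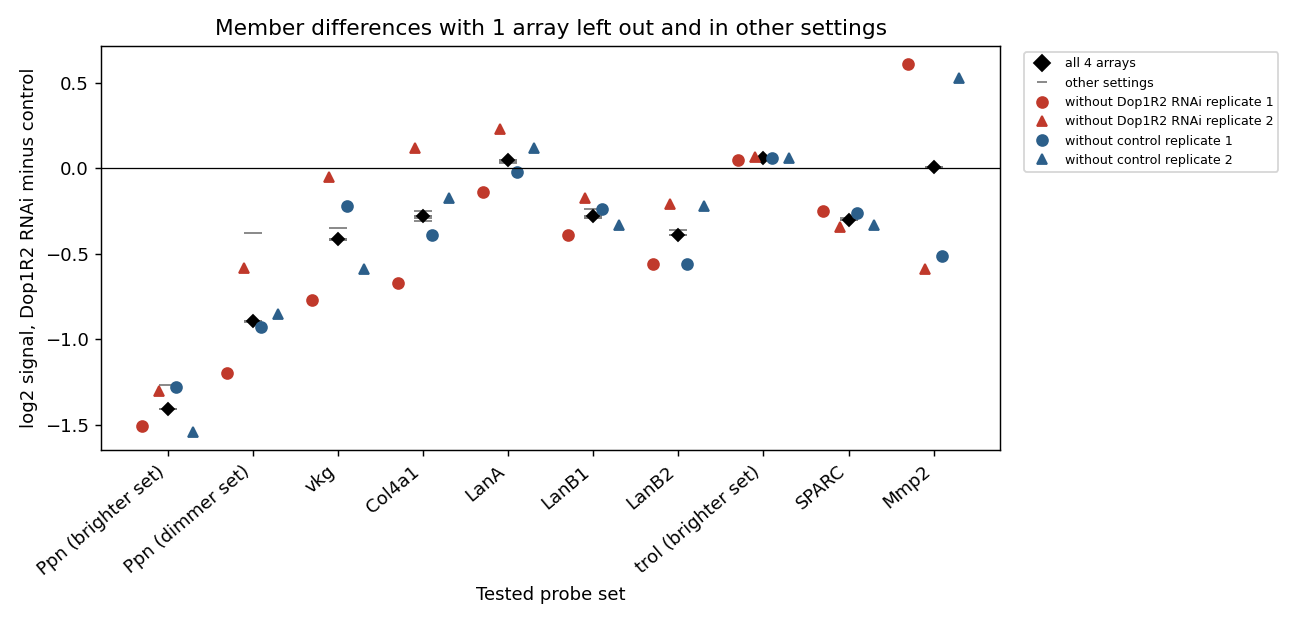
Log2 signal of Dop1R2 RNAi minus control for the 10 fitted probe sets with all 4 arrays (black), with 1 array left out (red and blue) and in the other settings (grey). The brighter Ppn set stays between -1.54 and -1.27, SPARC between -0.34 and -0.25, and Mmp2 moves from -0.59 to 0.61.

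Other components of the basement membrane were looked at through a list of 9 genes, of which 8 had a probe set and were fitted. In limma 0 passed at adjusted p, beside 1.49% of all fitted probe sets. At unadjusted p 1 was lower and 0 higher, beside 5.51% and 7.53% of all. With the methods' t-test after adjustment 0 passed, and the median log2 difference was -0.11. The lowest was Pxn, peroxidasin, the enzyme that forms crosslinks in collagen IV. Its signals were 187 and 169.8 in the knockdown and 359 and 380 in controls. The groups were far apart, with a log2 difference of -1.05 (standard error 0.22), but adjusted p was 0.0926. Without knockdown replicate 1 the log2 difference of Pxn was -1.12. Pxn passed at adjusted p in that fit and in no other limma setting. The fit holds only 1 knockdown array, and far more probe sets passed in it than with all arrays, so nothing is read from the pass.

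Ndg, the nidogen that links laminin to collagen IV, had signals of 138 and 92.3 in the knockdown and 193 and 150.2 in controls. Both knockdown arrays were below both controls (log2 difference -0.59, standard error 0.29, adjusted p = 0.433). Glt, the glutamate-rich matrix protein glutactin, had a log2 difference of -0.39 (adjusted p = 0.477). Mp, a multiplexin of the collagen XV and XVIII type, had one of 0.53 (0.528), and the laminin alpha chain gene wb one of 0.02 (0.985). The dimmer Mp sets had log2 differences of 0.16 (0.887) and, in a set left out of the fit, -0.21. In every Mp set the groups overlapped.

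Genes that modify or export collagen did not share a direction. Of 10 listed, 8 had a probe set and 6 were fitted. At adjusted p 0 passed in limma, beside 1.49% of all, and 0 with the methods' t-test. At unadjusted p from limma 1 was higher and 0 lower, beside 7.53% and 5.51% of all. PH4alphaEFB, the prolyl hydroxylase that fat body needs to fold collagen IV, had signals of 505 and 557 in the knockdown and 339 and 311 in controls. Both knockdown arrays were higher, with a log2 difference of 0.71 (standard error 0.21, adjusted p = 0.241), and its dimmer probe set had one of 0.47 (0.433). Plod, the lysyl hydroxylase, had one of 0.32 (0.566), and Crag, a regulator of basal secretion, one of 0.35 (0.688). Pdi, a protein disulfide isomerase, had one of -0.35 (0.514) and Tango1, which loads collagen at exit sites of the endoplasmic reticulum, one of -0.29 (0.627).

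Among 7 listed regulators of matrix proteolysis, 6 were fitted. At adjusted p 0 passed in limma, beside 1.49% of all, and 0 with the methods' t-test. At unadjusted p from limma 1 was higher and 0 lower, beside 7.53% and 5.51% of all. The one at unadjusted p was puc, the phosphatase that restrains and reports JNK signalling. Its signals were 103 and 95.9 in the knockdown and 58.3 and 58.6 in controls (log2 difference 0.76, standard error 0.23, adjusted p = 0.240). Timp, the inhibitor of the metalloproteinases, had a log2 difference of 0.41 (0.550), with knockdown replicate 2 and control replicate 1 both at 186. The ADAMTS protease gene stl had one of -0.70 (0.433), and RECK, a membrane-bound inhibitor of metalloproteinases, one of -0.56 (0.423).

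All 14 listed receptors and adhesion genes had a probe set, and 10 were fitted. At adjusted p 0 passed in limma, beside 1.49% of all, and 0 with the methods' t-test. At unadjusted p from limma 2 were higher and 0 lower, beside 7.53% and 5.51% of all. The integrin alpha chain gene scb had signals of 37.6 and 49.2 in the knockdown and 18.2 and 25.0 in controls. Its log2 difference was 1.01 (standard error 0.40, adjusted p = 0.363), but scb was kept for the fit through its 2 knockdown arrays alone and so had to be higher. It is 1 of the 2 at unadjusted p. Over all 14 genes, fitted or not, 7 were above 0 and 7 below. Talin, encoded by rhea, links integrins to actin, and both its probe sets were higher on both knockdown arrays, with log2 differences of 0.70 (0.335) and 0.98 (0.255). The main integrin beta chain gene mys had signals of 142 and 132 against 140.1 and 140.1, a log2 difference of -0.03 (0.967). Dystrophin (Dys) had one of 0.45 (0.488), and the integrin-linked kinase Ilk one of -0.44 (0.450).

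Over the 4 related lists together, 30 of 40 genes were fitted, 15 had a log2 difference above 0 and 15 below, and the median was -0.01. The limma fit called 0 of the 30 in either direction, beside 1.49% of all fitted probe sets. At unadjusted p 4 were higher (scb among them) and 1 lower, beside 7.53% and 5.51% of all.

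Haemocytes and fat body, which make much of the matrix, were followed through lists of marker genes. Of 11 listed haemocyte genes, 10 had a probe set and 5 were fitted. In limma 0 of the 5 passed at adjusted p, beside 1.49% of all, and 0 at unadjusted p, beside 7.53% higher and 5.51% lower. With the methods' t-test after adjustment 0 passed. The median log2 difference was 0.34 over the 5 fitted genes and -0.06 over all 10, of which 4 were above 0 and 6 below. The summed signal of the 10 was 406 and 430 in the knockdown and 341 and 399 in controls, so both knockdown arrays were above both controls. The scavenger receptor gene Sr-CI had the largest difference among those fitted (0.78, adjusted p = 0.386), but it was kept through its 2 knockdown arrays alone and so had to be higher. The GATA factor gene srp had the lowest (-0.01, 0.997). The haemocyte gene Hml was under the limit on every array, at 12.7 and 12.9 in the knockdown and 12.4 and 16.2 in controls.

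Of 9 listed fat body genes, 6 had a probe set and were fitted. In limma 0 passed at adjusted p, beside 1.49% of all, and 0 at unadjusted p, beside 7.53% higher and 5.51% lower. With the methods' t-test after adjustment 0 of these 6 genes passed. Their summed signal was 20662 and 21190 in the knockdown and 21133 and 21765 in controls, so the groups overlapped. The median log2 difference was -0.12, with 4 of 6 genes below 0, beside -0.04 over all fitted probe sets. The storage protein receptor gene Fbp1 had one of 0.13 (adjusted p = 0.721), and the lipid transfer protein gene Apoltp one of -0.54 (0.433). The part of either cell type in the values of the basement membrane genes was not tested.

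Among genes that mark the stage, 2 passed. Edg91, a cuticle protein gene of prepupae, rose from 56.5 and 51.7 in controls to 178 and 289.6 in Dop1R2 RNAi pupae (log2 difference 2.07, standard error 0.29, adjusted p = 0.0226). The pupal cuticle protein gene Pcp rose from 89.9 and 83.0 to 238 and 418 (1.87, standard error 0.31, adjusted p = 0.0407). ImpE2, an ecdysone-inducible gene, had signals of 1526 and 1913 in the knockdown and 2425 and 3558 in controls (-0.78, adjusted p = 0.249). Of 15 listed stage genes, 9 were fitted, and 2 passed as higher and 0 as lower, beside 1.38% and 0.103% of all. At unadjusted p 5 were higher and 1 lower, beside 7.53% and 5.51% of all. The median was 1.03 over the 9 fitted genes and 0.06 over all 15, of which 9 were above 0 and 6 below. The 1.03 is the value of ftz-f1, a nuclear receptor gene of prepupae that is 1 of the 5 and was kept through its 2 knockdown arrays alone, so it had to be higher. Neither Edg91 nor Pcp passed without control replicate 1 (adjusted p = 0.195 and 0.291), without control replicate 2 (0.141 and 0.186), without the filter (0.0532 and 0.0740) or without a trend (0.0517 and 0.0888), and Pcp did not with replicate number as a block (0.0508). Neither passed with the methods' t-test after adjustment (0.520 and 0.537). The part of stage in the values of Ppn and the other basement membrane genes was not tested.

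**Figure D4:**
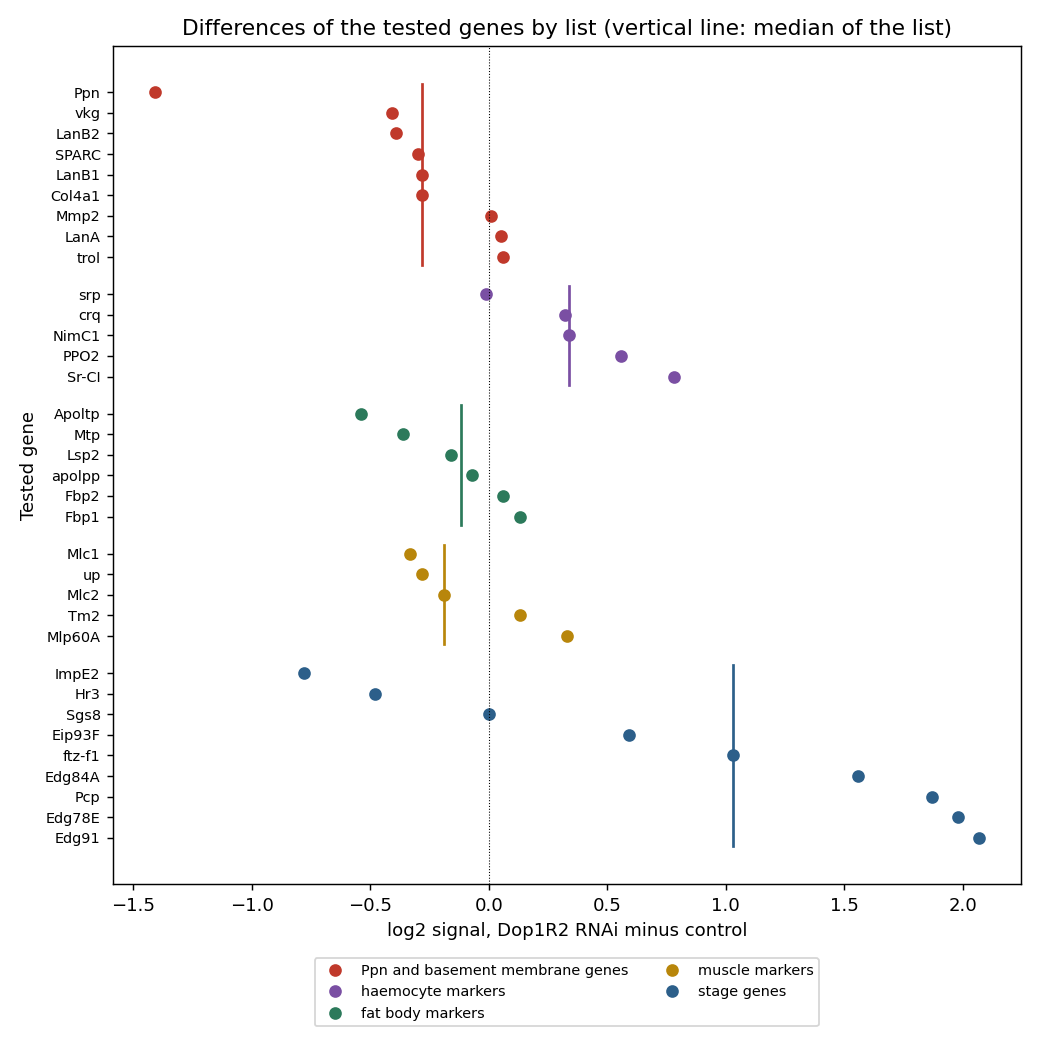
Log2 signal of Dop1R2 RNAi minus control for each fitted gene of the basement membrane set and of the haemocyte, fat body, muscle and stage lists, with a vertical line at the median of each list. The medians of the fitted genes are -0.28 (1 probe set per gene), 0.34, -0.12, -0.19 and 1.03, those of the haemocyte and stage lists fall to -0.06 and 0.06 when genes too dim for the fit are counted, and the stage genes Edg91 and Pcp lie at 2.07 and 1.87.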

How the data were processed

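RNA of whole pupae was measured on Affymetrix DrosGenome1 arrays, 2 for each group. The authors made 1 intensity per probe set and array with Microarray Suite (named as MAS5 in the submitters' processing notes, with no version in the sources used), with a 2% trimmed mean of 100.02 on every array. All 4 deposited columns were used, without the 44 control probe sets among 14010 rows. Nothing was added to a signal before its log2 was taken, and 8749 of 13966 probe sets (62.6%) were kept. Groups were compared with limma (version 3.58.1 under R 4.3.3, with a trend in eBayes and 2 residual degrees of freedom). The fit was also run on data simulated from its own fitted variances. Such data hold no array or replicate effects, so that run cannot show how the fit does with them. Summaries used Python 3.11.15. Precision is limited by the number of arrays: the smallest two-sided p of an exact permutation test with 2 against 2 is 0.333. The detection calls of the study were not used here.

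Probe sets were named from the platform annotation, where 12442 carry 1 gene, 327 several and 1197 none. Genes were matched through gene identifiers of RefSeq (Release 6 plus ISO1 MT), used for names and neighbours alone. Of 83 other listed genes, 72 had a probe set of their own. A gene with several was represented by the brightest. The genes and lists were chosen with earlier results of these data known. Named were all genes of the set, per related list those that passed and up to 4 with the largest difference, and per marker list those that passed and the largest rise and fall. Also named, after their values were seen, were wb, Tango1, mys, Hml and ftz-f1. The labels call the arrays of a group biological replicates.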

Additional observations from a re-analysis of the deposited data

How the results depend on the processing

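With 1 array left out, the count of probe sets that passed as higher ranged from 27 to 357 against 121 with all arrays, and as lower from 0 to 295 against 9. In these fits the lone array of a group is assumed to vary like the others. Of the 10 probe sets of the basement membrane genes, 0 to 1 passed as lower and 0 to 0 as higher, and of the 30 related genes 0 to 1 as lower (Pxn). The 1 that passed with all arrays (Ppn) became 0 without control replicate 1 or 2, with no filter on dim signals and in eBayes without a trend. With no such filter, 75 probe sets were higher and 3 lower. The methods' t-test called 467 probe sets higher and 323 lower before adjustment and 0 and 0 after it, with 1 higher and 2 lower among the 10 basement membrane probe sets and 3 higher and 3 lower among the 30 related genes at unadjusted p (0 and 0 after adjustment). These counts are over the probe sets fitted here and are not those of the study, which chose its genes by detection call. No other alternative moved a count by over 1.5 times. The cause was not tested. The median log2 difference of the basement membrane probe sets stayed between -0.48 and -0.19.

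Same-numbered arrays share only a number in the labels, and the deviations from the group mean correlated at 0.151 between them. With replicate number as a block, 131 probe sets passed as higher and 10 as lower, 1 of the 10 basement membrane probe sets passed as lower and 0 as higher, and 0 of the 30 related genes passed in either direction. Dim signals limit the second Ppn and the second trol probe set.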
